A study of Arabidopsis thaliana with 8 samples.

Results

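Transcript levels of 5 lectin genes were followed in Arabidopsis thaliana rosette leaves: the jacalin-related lectin genes JAL22 (AT2G39310), JAL23 (AT2G39330), JAL33 (AT3G16450) and JAL34 (AT3G16460), and the Euonymus-type lectin gene EULS3 (AT2G39050). They were chosen by name, as genes with a probe set of their own on the Affymetrix ATH1 array. The choice was made with earlier results of these data known. They are 5 of 13356 genes with such a probe set here. Their probe sets are 266988_at, 266989_at, 259384_at, 259327_at and 266170_at, in the order above. The plants were the wild type (ecotype Col-0) and dTLec1-1, a SALK insertion line in the same ecotype that is called dTLec here and for which the labels name no gene. All plants were grown for 5 weeks at 21 °C in a day of 10 h light and 14 h dark. Part of the rosette was wounded by clamping tweezers over the midvein, and control and systemic leaves were harvested for RNA 2 h later. Systemic leaves are, in common usage, those that were left unwounded on a wounded plant. The 4 groups of genotype and leaf type had 2 arrays each. The labels do not say whether control leaves came from separate unwounded plants, nor from what material the replicates were made. The p-values thus measure only how far these samples spread, and that spread may be technical.

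Lectins are proteins that bind sugars without changing them. Jacalin-related lectins carry 1 or more jacalin domains, many of which bind mannose-containing glycans, and in Arabidopsis JAL22, JAL23, JAL33 and JAL34 are known from the complexes that PYK10, a beta-glucosidase stored in endoplasmic reticulum bodies, forms when root or seedling tissue is crushed. EULS3 belongs to another lectin family, named after a protein of the spindle tree Euonymus. It is found in the nucleus and cytoplasm and is known for a transcript that responds to abscisic acid and osmotic stress. In the TAIR10.1 gene table JAL33 and JAL34 are direct neighbours, and 1 gene lies between JAL22 and JAL23.

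Values are on the log2 scale, on which a step of 1 is a doubling. Over all probe sets they ran from 3.24 to 14.28, with a lower quartile between 4.61 and 4.72 on the 8 arrays, and the correlation between the replicates of each group was 0.992 to 0.996 over probe sets, themselves no independent replicates. That correlation was taken after a difference between replicate numbers had been removed, as described below, so it does not show how well the replicates agreed before. Levels of different probe sets are not compared, because probes differ in brightness. Of 6 mesophyll markers 2 had a probe set of their own, and RCA (rubisco activase) and LHCB4.2 (a light-harvesting protein) lay between 13.57 and 13.88 on every array. PYK10, a gene expressed mainly in roots, lay between 4.22 and 4.33 on every array, below that lower quartile. None of 3 guard cell and none of 3 phloem markers was measured by name. The insertion itself was not checked, since its gene is not named.

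The deposited values carry a feature that bears on every test. At each probe set the means of the 4 replicate 1 arrays and of the 4 replicate 2 arrays were equal, to within 7.5e-05, so that a difference between replicate numbers had been removed. A gap between replicates, or an SD within a group, is thus known only up to a shift common to the 4 groups. The p-values of the model with 1 mean per group are therefore too small, and those of a model with the replicate number as a block are given with them. Fits with 1 array left out were run without the block. The value left out follows from the others, because the replicate means are equal. Such fits thus cannot show that a call is independent of an array or rests on it. A gene is said to have risen or fallen where the adjusted p was below 0.05 in the first model.

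In the wild type, 2 of the 5 lectin genes rose in systemic leaves, JAL23 2.83-fold and JAL34 4.02-fold, and both also passed with the replicate block. Over all probe sets 5.91% passed as higher in this comparison, and 3.92% with the block. JAL22, JAL33 and EULS3 did not pass. The median log2 difference of the 5 genes was 0.48, against −0.02 over all probe sets. As the genes were chosen with earlier results of these data known, these shares and medians are descriptions. RNA from whole leaves cannot tell a change in the cells that express a gene from a change in the RNA per cell.

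JAL23 had values of 4.95 and 4.65 in wild-type control leaves, and of 6.26 and 6.34 in wild-type systemic leaves. In dTLec it had 4.60 and 4.62 in control leaves, and 5.04 and 5.24 in systemic leaves. Both systemic arrays thus lay above both control arrays in each genotype, and the wild-type systemic arrays were the highest of the 8. The log2 rise in the wild type was 1.50 ± 0.12 (SE, 2 arrays in each group), with a limma adjusted p of 0.00119 and of 0.00271 with the block. With single arrays left out the log2 difference lay between 1.35 and 1.65, though a left-out value still shapes those that remain. The dTLec difference was 0.53 ± 0.12, a 1.45-fold higher level, and did not pass (limma adjusted p 0.102, with the block 0.237). It passed when either wild-type control array was left out (limma adjusted p 0.0468), which changes the estimate of the spread and not the difference.

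JAL34, whose gene encodes a protein with several jacalin domains, varied most of the 5, over a range of 3.23 among the 8 arrays. Its values were 6.01 and 4.71 in wild-type control leaves and 6.80 and 7.94 in wild-type systemic leaves. In dTLec they were 5.44 and 5.54 in control leaves and 6.52 and 6.58 in systemic leaves. The systemic arrays lay above the control arrays in each genotype. In the deposited values the replicates differed by 1.30 in wild-type control leaves and by 1.14 in wild-type systemic leaves, against 0.10 and 0.06 in dTLec. These gaps are known only up to a shift common to the 4 groups, so the spread within a single group is not known. The 2 wild-type gaps, in opposite directions, lay further apart than the 2 dTLec gaps, which such a shift does not change. The wild-type rise was 2.01 ± 0.46 (SE, n = 2 arrays per group), with a limma adjusted p of 0.0341 and of 0.0470 with the block. This call was lost in some of the fits with 1 array left out. Without wild-type systemic replicate 2 the log2 difference was 1.44 (limma adjusted p 0.163), and without wild-type control replicate 2 it was 1.36 (0.0775). Without either dTLec control array the adjusted p was 0.054 (limma). In dTLec the difference was 1.06 ± 0.46, with a 95% interval from −0.03 to 2.15, and did not pass (limma adjusted p 0.315, with the block 0.470).

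EULS3 did not pass between systemic and control leaves in either genotype. Its values were 7.46 and 6.76 in wild-type control leaves and 7.59 on both wild-type systemic arrays. In dTLec they were 6.56 and 6.84 in control leaves, and 6.48 and 6.89 in systemic leaves. The wild-type systemic arrays lay above the control arrays, though close to replicate 1, while the dTLec arrays of the 2 leaf types overlapped. The wild-type difference was 0.48 ± 0.24, with a 95% interval from −0.08 to 1.03 (limma adjusted p 0.273). It was 0.83 without wild-type control replicate 1 (limma adjusted p 0.0309) and 0.13 without wild-type control replicate 2 (0.796). The dTLec difference was −0.02 ± 0.24, with an interval from −0.57 to 0.54.

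JAL22 and JAL33 stayed low and nearly flat. JAL22 ranged from 4.26 to 4.47 over the 8 arrays, and its log2 difference between systemic and control leaves was −0.10 in the wild type (95% interval −0.31 to 0.12) and 0.03 in dTLec (−0.18 to 0.25). JAL33 ranged from 4.46 to 4.72. Its values were 4.46 and 4.53 in wild-type control leaves and between 4.64 and 4.72 on the other 6 arrays. The wild-type difference of JAL33 was 0.18, with an interval from 0.01 to 0.36 that became −0.06 to 0.42 with the block, and it did not pass (limma adjusted p 0.183, with the block 0.413). No detection calls were used, and values near the lower end of the array are compressed, so these intervals do not bound changes of a transcript below the reach of its probes. JAL22 and JAL33 are thus given as values, beside their close neighbours JAL23 and JAL34 that rose in the wild type. The contrast between neighbours was not tested. Control values of JAL23 (4.60 to 4.95) and the JAL34 value of wild-type control replicate 2 (4.71) also lay close to the lower quartile of the arrays (4.61 to 4.72). Differences taken from them may be compressed too.

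Considered without a test, both wild-type systemic arrays lay above both wild-type control arrays in 4 of the 5 genes, all but JAL22. Over all probe sets this held for 22.4%. In dTLec it held for 2 of 5, JAL23 and JAL34, against 21.7% of all probe sets. None of the 5 passed in dTLec (limma), where 0.668% of all probe sets did, and 0.0703% with the block. At an unadjusted p below 0.05 JAL23 passed there, with 16.5% of all probe sets. When the responses of both genotypes were averaged, the same 2 genes passed, against 6.5% of all probe sets as higher and 4.39% with the block. JAL23 rose by 1.02 ± 0.08 (limma adjusted p 0.000907, with the block 0.00198) and JAL34 by 1.53 ± 0.33 (0.0232, with the block 0.0328). JAL34 did not pass in this average without wild-type systemic replicate 2 (limma adjusted p 0.0592), dTLec control replicate 1 (0.0614), dTLec control replicate 2 (0.0680) or dTLec systemic replicate 2 (0.0613).

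The genotypes were then compared within each leaf type, to ask how dTLec differed from the wild type. In systemic leaves JAL23 was 2.23-fold lower in dTLec, the 1 lectin gene of the 5 that passed, where 3.27% of all probe sets passed as lower, and 0.659% with the block. The log2 difference was −1.16 ± 0.12 (SE, n = 2 arrays per group), with a limma adjusted p of 0.00857 and of 0.0257 with the block. Every dTLec systemic array lay below every wild-type systemic array, by at least 1 on the log2 scale. The call was lost without wild-type systemic replicate 2 (log2 difference −1.12), dTLec systemic replicate 1 (−1.06) or wild-type systemic replicate 1 (−1.20). In each of these fits a group kept 1 array, and far fewer of all probe sets passed. The loss is thus not particular to JAL23. This comparison shares the wild-type systemic arrays with the wild-type response, so the values are not independent of each other.

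EULS3 did not pass between the genotypes in systemic leaves, though its arrays did not overlap. Both wild-type systemic arrays were at 7.59, while the dTLec systemic arrays were at 6.48 and 6.89, a log2 difference of −0.90 ± 0.24 (95% interval −1.46 to −0.35) that did not pass (limma adjusted p 0.0763, with the block 0.131). It passed when either wild-type control array was left out (limma adjusted p 0.0198). In these leaves JAL34 had a difference of −0.82 with an interval from −1.91 to 0.27, JAL22 of 0.03 and JAL33 of 0.00. Both dTLec systemic arrays were below both wild-type systemic arrays in 3 of the 5 genes, JAL23, JAL34 and EULS3, against 24% of all probe sets.

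In control leaves no lectin gene passed between the genotypes, and 0% of all 22746 probe sets did, in limma with and without the block. At an unadjusted p below 0.05, 9.25% of all probe sets passed, and JAL33 at 0.0499 (0.127 with the block). The log2 difference of JAL23 was −0.19 (95% interval −0.46 to 0.09), that of EULS3 −0.41 (−0.97 to 0.15), that of JAL34 0.13 (−0.97 to 1.22), that of JAL22 −0.10 (−0.32 to 0.12) and that of JAL33 0.18 (from just above 0 to 0.35). With the block the JAL33 interval ran from −0.06 to 0.42. Both dTLec arrays lay above both wild-type arrays for JAL33 (20.7% of all probe sets) and below them for JAL23 (17.3%). JAL34 had a difference of −0.52 in this comparison without wild-type control replicate 2 and of 0.78 without replicate 1.

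Averaged over leaf types, JAL23 was lower in dTLec by a log2 difference of −0.67 ± 0.08, with a limma adjusted p of 0.0156 and of 0.0492 with the block, where 2.35% of all probe sets passed as lower (0.299% with the block). The call was lost without wild-type systemic replicate 1, wild-type systemic replicate 2, dTLec control replicate 2 or dTLec systemic replicate 1. These fits left 1 array in a group, and far fewer of all probe sets passed in each. EULS3 had −0.66 ± 0.17 with an adjusted p of 0.0772 (limma, with the block 0.145), and −0.83 with 0.0208 without wild-type control replicate 2. JAL34 had −0.35, JAL22 −0.04 and JAL33 0.09 in this average, and did not pass.

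**Figure D1:**
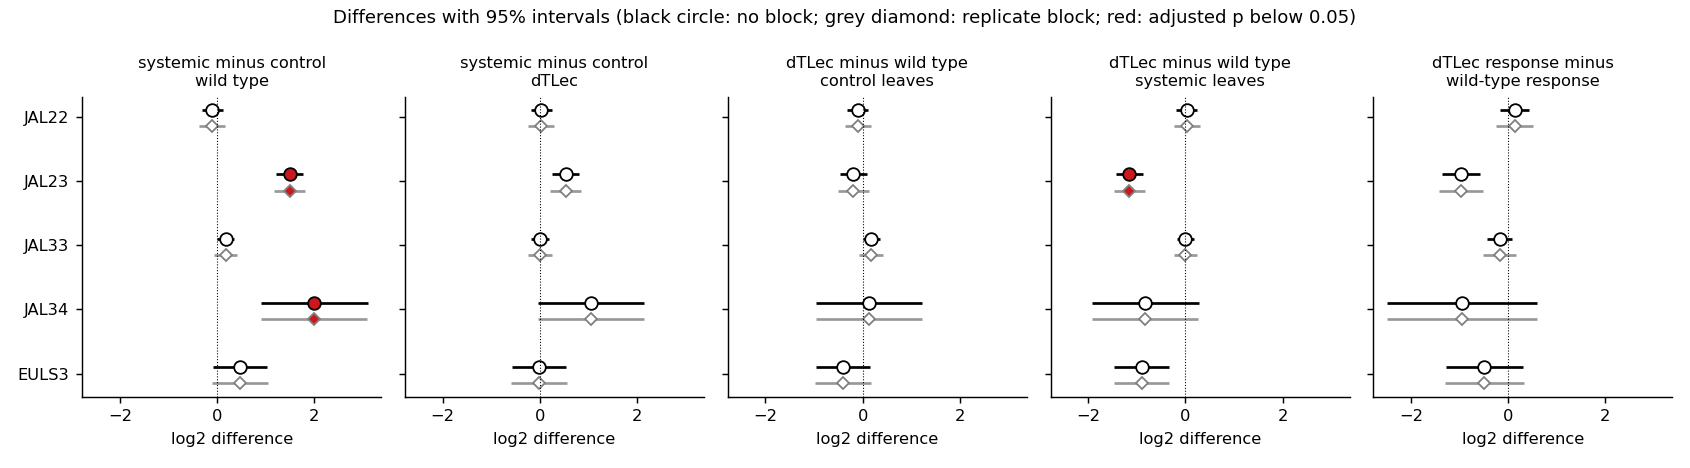
Log2 differences of the 5 lectin genes (horizontal axis) in 5 comparisons (panels), with 95% intervals, for the model with 1 mean per group (black, circles) and with the replicate block (grey, diamonds), filled red where the adjusted p is below 0.05. JAL23 and JAL34 pass in the wild-type response (1.50 and 2.01) and JAL23 in systemic leaves between the genotypes (−1.16), and no gene passes in the panel of the difference of the responses.

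The difference between the responses was tested directly, since a rise that passed in the wild type and not in dTLec does not show that the responses differ. None of the 5 genes passed (limma), in a comparison that 0.0044% of all probe sets passed, and 0% with the block. JAL23 came closest, with a dTLec response lower than the wild-type response by a log2 difference of −0.97 ± 0.17 and a 95% interval from −1.36 to −0.58. Its unadjusted p was 0.000582 and its adjusted p 0.154 (limma), or 0.447 with the block, and leaving out 1 array gave adjusted p-values from 0.0940 to 0.573. For JAL34 the difference was −0.95 with an interval from −2.49 to 0.60, and for EULS3 −0.49, from −1.28 to 0.30. JAL22 had 0.13 and JAL33 −0.18. Of the 5 genes JAL23 had an unadjusted p below 0.05, as had 11.2% of all probe sets.

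By level, the groups of JAL23 ran from wild-type systemic leaves (6.30 ± 0.06, SD, n = 2) over dTLec systemic (5.14 ± 0.14) and wild-type control (4.80 ± 0.21) to dTLec control leaves (4.61 ± 0.01). The arrays of neighbouring groups in this order did not overlap, though the gaps above and below wild-type control leaves were smaller than the range within them. The order of JAL34 was wild-type systemic (7.37 ± 0.81), dTLec systemic (6.55 ± 0.04), dTLec control (5.49 ± 0.07) and wild-type control leaves (5.36 ± 0.92), of which the last pair overlapped. For EULS3 it was wild-type systemic (7.59 ± 0.00), wild-type control (7.11 ± 0.49), dTLec control (6.70 ± 0.20) and dTLec systemic leaves (6.69 ± 0.29), and the arrays of the last 3 groups overlapped. These SDs come from values with the replicate difference removed, so a small SD does not show that a group spread little.

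In the deposited values, replicates of wild-type control leaves differed in several of these genes. Replicate 1 exceeded replicate 2 by 1.30 for JAL34, by 0.70 for EULS3 and by 0.30 for JAL23, where the median absolute gap over all probe sets was 0.12 and 0.281% of them had a larger gap than JAL34. The gap was 0.06 for JAL22 and −0.07 for JAL33. The cold- and abscisic-acid-responsive genes COR15A, COR47, LTI30 and COR15B had gaps of 1.35, 0.99, 0.64 and 0.35 in the same direction. Whether these gaps share a source with the differences between leaf types was not tested.

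Other genes with jacalin domains were listed from general knowledge of the family, as the gene table gives none of the measured ones a symbol. Of 45 such genes 18 had a probe set of their own, and 1 of the 18, AT1G52000, rose in the wild type, while none fell. That is a share near the 5.91% of all probe sets that passed as higher (3.92% with the block). It went from 8.17 and 7.05 in wild-type control leaves to 9.90 and 9.97 in systemic leaves, and from 6.52 and 6.40 to 7.87 and 9.04 in dTLec. Every systemic array lay above the control arrays of its own genotype. The log2 differences were 2.32 ± 0.43 in the wild type (limma adjusted p 0.0163, with the block 0.0236) and 2.00 ± 0.43 in dTLec (0.101, with the block 0.174). The wild-type call was lost without wild-type systemic replicate 1 (limma adjusted p 0.0683) or 2 (0.0926), and the dTLec value passed without either wild-type control array (0.0311).

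In both leaf types the dTLec arrays of AT1G52000 lay below those of the wild type, with log2 differences of −1.15 in control and −1.48 in systemic leaves that did not pass (limma adjusted p 0.496 and 0.101). In systemic leaves this difference passed without either wild-type control array (0.0369). AT1G19715, with values from 6.82 to 7.76, had a difference of −0.44 between the leaf types of the wild type and of −0.39 between those of dTLec, which did not pass (limma adjusted p 0.111 and 0.252). The wild-type difference passed without either dTLec systemic array (0.0410). The average of −0.41 passed in the first model (limma adjusted p 0.0405) and neither with the block (0.0731) nor in 6 of the 8 fits without 1 array, all but those without wild-type control replicate 1 or dTLec systemic replicate 1 (0.0714 to 0.126). AT1G73040 had −0.55 and −0.23 (limma adjusted p 0.196 and 0.668). The remaining 15 genes lay between 3.88 and 5.80 on all arrays, and none of them had a difference between leaf types beyond 0.14 in the wild type or 0.21 in dTLec. The median over the 18 genes was −0.02 in both genotypes, close to the −0.02 and −0.01 of all probe sets.

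**Figure D2:**
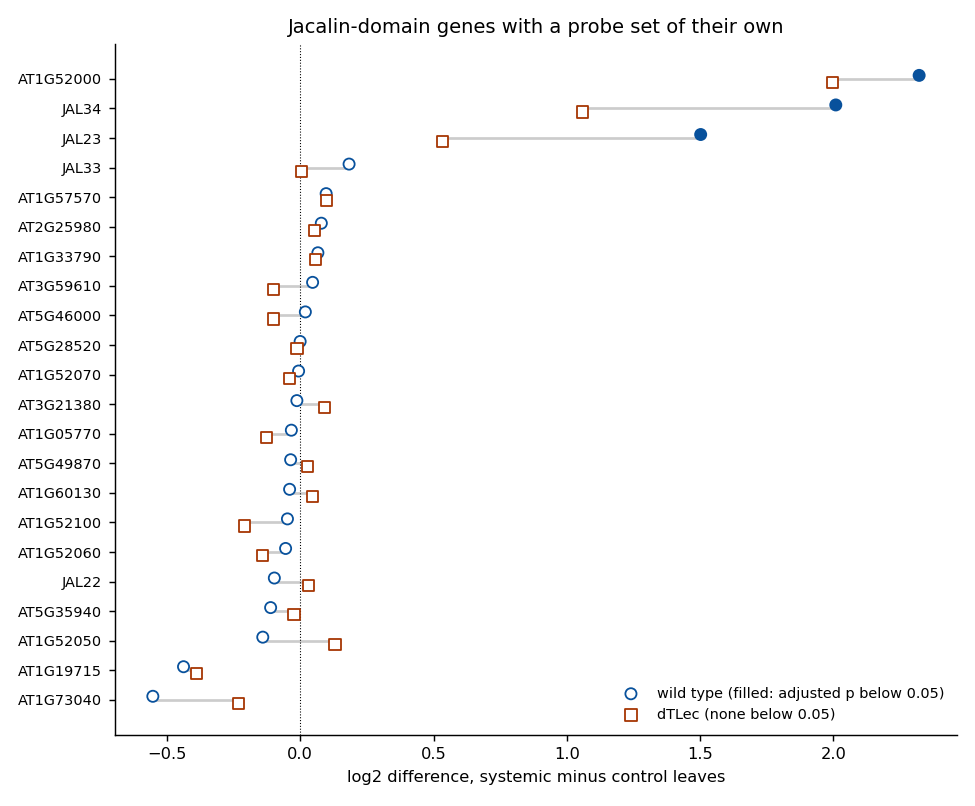
Log2 difference between systemic and control leaves (horizontal axis) for the 22 genes with jacalin domains that have a probe set of their own (rows), in the wild type (circles, filled where the adjusted p is below 0.05) and in dTLec (squares). AT1G52000, JAL34 and JAL23 stand at 2.32, 2.01 and 1.50 in the wild type and at 2.00, 1.06 and 0.53 in dTLec, while most others lie close to 0.

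Of 9 genes of the PYK10 complex and the endoplasmic reticulum body, 3 were measured by name. NAI1, a bHLH transcription factor needed for endoplasmic reticulum bodies and for PYK10 expression, rose in the wild type by 0.95 ± 0.12, from 5.40 and 5.42 to 6.28 and 6.45 (limma adjusted p 0.0037, with the block 0.00891). In dTLec it had 5.44 and 5.14 in control and 5.38 and 5.49 in systemic leaves, overlapping values with a difference of 0.14 (limma adjusted p 0.581). In systemic leaves it was lower in dTLec by a log2 difference of −0.93 ± 0.12 (limma adjusted p 0.0140, with the block 0.0373). This call was lost without either wild-type systemic array or without dTLec systemic replicate 1, fits in which far fewer of all probe sets passed. The difference of the NAI1 responses, −0.81, did not pass (limma adjusted p 0.179). NAI2, which encodes a protein of endoplasmic reticulum body formation, lay between 3.74 and 4.57 on every array. That is below the lower quartile of the arrays (4.61 to 4.72), near the lower end where values are compressed. NAI2 differed between leaf types by 0.34 in the wild type and by 0.68 in dTLec, which did not pass. Their average of 0.51 did (limma adjusted p 0.0168, with the block 0.0339). That average did not pass without replicate 2 of wild-type systemic (0.0601), dTLec control (0.0587) or dTLec systemic leaves (0.0552), and the dTLec difference passed without either wild-type control array (limma adjusted p 0.0325). The wild-type difference was 0.53 and passed without wild-type control replicate 1 (limma adjusted p 0.0450). PYK10 itself had −0.02 and −0.01.

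Among lectins of other families, 2 of 20 listed genes were measured by name and neither passed in any comparison. AT5G03350 had 8.85 and 8.18 in wild-type control leaves, 7.79 and 8.39 in wild-type systemic leaves, 7.13 and 6.58 in dTLec control leaves and 7.79 and 8.42 in dTLec systemic leaves. Its dTLec control arrays were thus the lowest of the 8, and the difference of the genotypes in control leaves was −1.66 (limma adjusted p 0.242). AT3G16530 stayed between 10.92 and 11.44.

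Of 10 genes of the abscisic acid and cold response, listed beside EULS3, 4 were measured by name, and all 4 rose in the wild type, with log2 differences from 1.58 to 4.35 and a median of 2.66. Over all probe sets 5.91% passed as higher in that comparison (3.92% with the block), and the median was −0.02. The list was chosen with earlier results of these data known, so these values describe the 4 genes and are no test. LTI30, which encodes a dehydrin, also rose in dTLec, by 3.73 (limma adjusted p 0.0209, with the block 0.0247), where 0.488% of all probe sets passed as higher (0.0659% with the block). That call was lost without dTLec control replicate 1 (0.0880) or 2 (0.178), dTLec systemic replicate 2 (0.0541) or either wild-type systemic array (0.0510). The wild-type call of COR47, another dehydrin gene, was lost without wild-type systemic replicate 2 (0.0550). The dTLec differences of COR15A, COR47 and COR15B were 2.53, 1.99 and 0.63 and did not pass (limma adjusted p 0.0642, 0.0642 and 0.104). COR15A and COR47 passed there with the filter on a mean of at least 6 (0.0432 and 0.0441), with a trended robust prior (0.0424 and 0.0415) and without either wild-type control array (0.00742 and 0.0108), and COR15B passed without either of those arrays (0.0468). In systemic leaves COR15B was lower in dTLec by a log2 difference of −0.77 (limma adjusted p 0.0329), but not with the block (0.0781). The call was also lost without any single array of wild-type systemic, dTLec control or dTLec systemic leaves. Fewer of all probe sets passed in each of these fits. EULS3, at 0.48 in the wild type, did not pass in the same comparison. Of 13 genes of glucosinolate breakdown and 17 of the jasmonate response none was matched by name, and they were not analysed here.

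The genes with the most similar profiles were found for JAL23 and JAL34, which had passed in at least 1 comparison, among 13508 other probe sets with 1 gene. Likeness was the root mean square difference over the 8 arrays between log2 values, each taken relative to the gene's own mean. Nearest to JAL23 were AT5G42570 at 0.10, AT4G35110 at 0.13 and AT2G43530 at 0.14. Nearest to JAL34 were AT2G39980 at 0.22, AT3G05640 at 0.22 and AT4G15680 at 0.29.

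The genes near JAL23 had wild-type differences between systemic and control leaves of 1.51, 1.27 and 1.57, dTLec differences of 0.76, 0.34 and 0.44, and differences between genotypes in systemic leaves of −0.96, −1.12 and −1.23. Those near JAL34 had 2.09, 2.15 and 1.40 in the wild type and 1.31, 1.08 and 0.78 in dTLec, and wild-type control replicate 1 exceeded replicate 2 by 0.74, 1.41 and 0.87. They were picked for this likeness, so their values are descriptions.

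**Figure D3:**
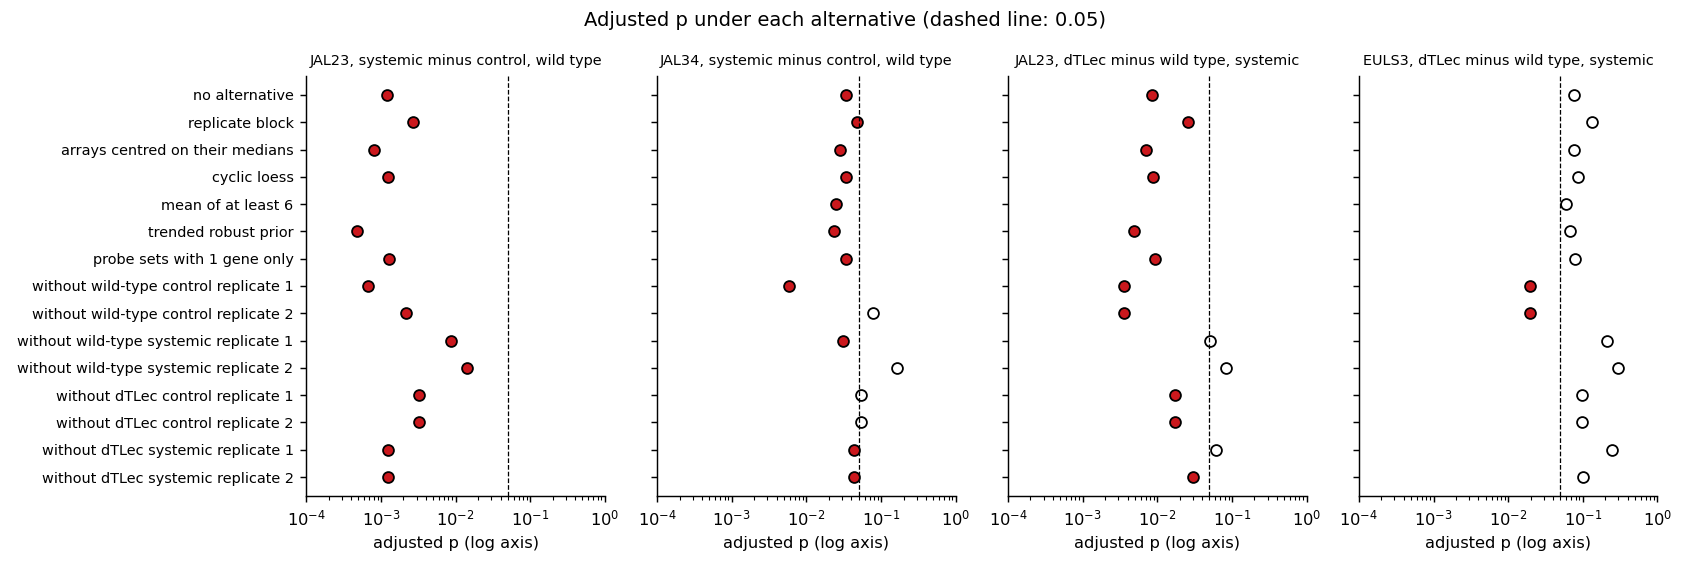
Adjusted p (horizontal log axis, dashed line at 0.05, red below it) of 4 lectin results under each alternative (rows). JAL23 in the wild type stays below the line throughout. JAL34 in the wild type and JAL23 between the genotypes rise above it when certain single arrays are left out. EULS3 between the genotypes falls below it when either wild-type control array is left out. JAL23 has no point under the filter on a mean of at least 6.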

How the data were processed

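Each of 8 leaf samples was measured on an ATH1 array, per the labels' protocols. The authors deposited 1 log2 value for each probe set and array, already normalized. RMA and Partek are named in the submitters' processing notes, without versions, and how they were set is not stated there. The scale was read from the values. Arrays have no read depth, and their number limits the precision.

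After 64 control probe sets were left out, 22746 were tested. Platform annotation gave 13513 of them 1 gene, 503 several and 8730 none, and symbols follow the TAIR10.1 gene table. No build is named for the arrays, so no coordinates or sequences are given.

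With limma 3.58.1 (lmFit, eBayes) in R 4.3.3, the 8 arrays entered 1 linear model of the 4 group means, with 7 comparisons, two-sided tests and Benjamini-Hochberg adjustment over all 22746 probe sets at 0.05. It has 4 residual degrees of freedom, and 3 with the replicate block. Intervals are 95% intervals from the fit without the block, unless the block is named. The fit was run on simulated data with independent noise, from which no difference between replicate numbers had been removed. It therefore cannot check the error rates for the deposited values. Genes and lists were chosen with earlier results of these data known. Besides the 5 lectin genes, the rule for naming took the 3 nearest profiles of each one that passed and the members of 10 lists, of which 29 of 123 genes were measured by name.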

Additional observations from a re-analysis of the deposited data

How the results depend on the processing

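The alternatives were the replicate block, centring of arrays on their medians, cyclic loess, a filter on a mean of at least 6, a trended robust prior, testing only probe sets with 1 gene, and leaving out each array in turn, where a lone array is assumed to vary like the other groups. The fits without an array had no block, so their p-values are too small as well. A left-out value also follows from the others, so these fits cannot show independence of an array. The block changed no call of the 5 lectin genes, but cut all calls in the wild-type response from 2716 to 1596, in dTLec from 152 to 16, in systemic leaves from 1257 to 213 and in the genotype average from 885 to 103. Differences between replicates correlated between groups with r from −0.58 to −0.13 (6 pairs of groups), but the 4 differences sum to 0 at each probe set, which by itself makes such correlations negative on balance, so they cannot show whether the numbers pair samples. The filter kept 2 of the 5 genes, JAL34 and EULS3, by a mean that the high groups raise. JAL23 left the test, so the lectin genes past the threshold became 1 in place of 2 in the wild-type response and in the average over genotypes, and 0 in place of 1 in systemic leaves and in the genotype average. With single arrays left out the count ran from 1 to 3 in the wild-type response, 0 to 1 in dTLec, 0 to 2 in systemic leaves, 1 to 2 in the average over genotypes and 0 to 2 in the genotype average, and stayed 0 in control leaves and for the difference of responses. In these comparisons the number of all probe sets that passed also varied widely between the same fits, each with 1 array in a group. The ranges are thus not particular to the lectin genes. No difference that passed in either the main or the alternative fit changed sign. Among differences that passed in neither, 18 did, 15 of them with an array left out. With 2 arrays per group and values of JAL22 and JAL33 near the lower end of the range, small changes could not be seen.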
